A study of Homo sapiens with 6 samples.

Results

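The integrin subunits, the laminin chains and fibronectin are among the genes by which a cell makes and holds on to its matrix. They were taken from the deposited gene table by symbol, as every protein-coding integrin alpha or beta subunit, every laminin alpha, beta or gamma chain, and FN1. The rule found 39 genes of the 60612 in the table, of which 26 are integrin subunits, 12 are laminin chains and 1 is fibronectin. The study sequenced poly(A) RNA as read pairs in 6 libraries, all of cells that the labels name Hep3B, an established line from a human liver cancer. In 3 libraries the cells had received a small interfering RNA against EIF4G2 at 50 nM (siEIF4G2), and in the other 3 a control small interfering RNA at 50 nM (siNC). EIF4G2 encodes an initiation factor of translation that resembles part of EIF4G1. The labels name no separate cultures and no time after transfection, so p-values here reflect the variation among the 6 libraries, and this variation may be technical.

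Integrins are receptors made of an alpha and a beta subunit that span the cell membrane. The alpha subunit largely sets which matrix protein is bound, and the beta subunit tail carries the link to talin, kindlin and the actin cytoskeleton. Laminins are secreted trimers of an alpha, a beta and a gamma chain that form the sheet of the basement membrane, and fibronectin is a secreted dimer that is assembled into fibrils with the help of integrins. In liver tumour cells these genes have been studied mainly for their part in adhesion, spreading and invasion.

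The promoter sequences of the genes at the centre of the results are shown first, because LAMB3 and LAMA3 encode chains of the same laminin and differed in their response, and ITGA5 and FN1 encode a receptor chain and its ligand. RefSeq promoter windows (GRCh38.p14, 250 bases before to 50 after a start site) were at hand for 27 of the 39 genes, with 34 windows in all. Each was searched on both strands for TGANTCA, the AP-1 motif, and the only windows of these families that held it belonged to LAMB3, LAMA3 and ITGA5. Below, each sequence runs from 150 bases before to 20 after the start site in the direction of the gene, and the capitals mark TGANTCA in the sequences of LAMB3, LAMA3 and ITGA5 and GGGCGG, the SP1 box, in that of FN1.
LAMB3, chr1:209651355-209651524, minus strand: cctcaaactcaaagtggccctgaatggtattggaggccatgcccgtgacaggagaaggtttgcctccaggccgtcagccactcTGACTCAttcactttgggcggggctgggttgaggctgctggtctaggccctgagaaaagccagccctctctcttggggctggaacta
LAMA3, chr18:23872870-23873039, plus strand: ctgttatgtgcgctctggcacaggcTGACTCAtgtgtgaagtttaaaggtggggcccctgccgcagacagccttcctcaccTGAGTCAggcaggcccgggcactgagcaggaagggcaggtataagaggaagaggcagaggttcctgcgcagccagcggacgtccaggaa
ITGA5, chr12:54419247-54419416, minus strand: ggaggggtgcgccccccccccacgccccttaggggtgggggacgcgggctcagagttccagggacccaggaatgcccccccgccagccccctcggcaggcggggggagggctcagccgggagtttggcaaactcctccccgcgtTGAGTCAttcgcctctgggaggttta
FN1, chr2:215436049-215436218, minus strand: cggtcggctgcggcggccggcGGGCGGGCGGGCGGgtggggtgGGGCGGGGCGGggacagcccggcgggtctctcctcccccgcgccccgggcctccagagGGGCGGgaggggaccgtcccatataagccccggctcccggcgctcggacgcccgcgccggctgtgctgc

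TGANTCA begins at base -67 from the start site in this LAMB3 window, which is 1 of 3 RefSeq start sites of the gene, at bases -125 and -69 in LAMA3, and at base -6 in ITGA5. The windows of the other 2 LAMB3 start sites held no TGANTCA, and the start site shown lies 1.05 kb inside the gene from the start listed in the gene table. The LAMA3 start site shown lies 184 kb inside the gene from its listed start. Over all 35116 promoter windows of the same length, 7.71% held TGANTCA, against 3 of the 34 windows of these families. GGGCGG was found in 45.0% of all windows and in 20 of the 34, and FN1 held 6 matches, some of which overlap each other. The 34 windows are not all separate, since some genes have several. Some windows of LAMB3 overlap and share a GGGCGG match, as do those of ITGA6. CACGTG, the E-box, was found in 7.26% of all windows and in 1 of the 34, a window of ITGA6. TTCNNNGAA, the STAT motif, was found in 7.66% of all windows and in 2 of the 34, those of LAMB2 and ITGAE. A match of letters is a description of the sequence, and the gene table does not say which start site was used.

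EIF4G2 itself read 178, 180 and 199.8 CPM (counts scaled to library size with edgeR's TMM factors) in siEIF4G2 replicates 1, 2 and 3, and 1103, 913 and 998 CPM in siNC replicates 1, 2 and 3, a level 5.41-fold lower in siEIF4G2 that went with the label of each library. The libraries had 63351653 to 72863628 counts each, and where a gene had no count the upper limit is 3 counts, which is 0.0403 to 0.0466 CPM and covers counting error only. The defining hepatocyte markers were absent, which goes against the label of a liver cancer line and leaves the identity of the cells in doubt: ALB, AFP, GPC3, TTR, FGB, APOB and APOA1 had no count in any library, and the 11 markers together summed to 0.124 to 0.363 CPM in siEIF4G2 and 0.0597 to 0.248 CPM in siNC. The epithelial keratins KRT8 and KRT18 were abundant (1580 ± 27.1 and 722 ± 10.4 CPM in siNC), whereas EPCAM, CDH1 and KRT19 averaged under 1 CPM, and the 6 epithelial markers summed to 1980 to 2220 CPM in siEIF4G2 and 2270 to 2330 CPM in siNC. Of the 3 epithelial markers tested, KRT8 did not pass (edgeR adjusted p = 0.126) and 2 were lower, where 17.6% of all tested genes were. KRT18 stood at 638 ± 22.75 CPM in siEIF4G2 against 722 ± 10.4 CPM in siNC (edgeR adjusted p = 0.019). The tight junction gene CLDN1 stood at 1.14 ± 0.13 against 3.13 ± 0.3 CPM (edgeR adjusted p = 0.00162). Among markers of other cell types, PTPRC, CD3E and ITGAX of leukocytes had no count, although the summed level of the 8 leukocyte markers, mostly CD68, was 19.6 to 25.1 CPM in siEIF4G2 and 31.5 to 36.9 CPM in siNC. The 6 endothelial markers summed to 3.46 to 4.17 CPM in siEIF4G2 and 10.2 to 11.0 CPM in siNC, mostly CDH5 (3.12 ± 0.457 and 9.41 ± 0.432 CPM). The 9 fibroblast markers summed to 625 to 663 CPM in siEIF4G2 and 548 to 578 CPM in siNC. Of the 6 tested, COL3A1, DCN and LUM were higher, where 15.9% of all tested genes were. COL1A1, PDGFRB and ACTA2 were lower, where 17.6% were. The 5 platelet markers summed to 0.855 to 1.52 CPM in siEIF4G2 and 0.88 to 1.09 CPM in siNC, with PF4, PPBP and GP9 at 0. The part of these shifts in the results that follow was not tested, and in bulk RNA fewer cells of a type and less RNA per cell cannot be told apart.

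After silencing of EIF4G2, most of the expressed integrin, laminin and fibronectin genes were lower, and LAMC3 alone was higher. Of the 39 genes, 19 reached 0.5 FPKM (fragments scaled to transcript length and library size) in at least 3 libraries and were tested, and each of the 19 did so in all 6 libraries. With edgeR's quasi-likelihood test at an adjusted p of 0.05, 12 of the 19 were lower in siEIF4G2, where 17.6% of all 13748 tested genes were, 1 was higher, where 15.9% of all tested genes were, and 6 did not pass. Counted in either direction, 13 of the 19 passed, against 33.4% of all tested genes. The median log2 fold change over the 19 was -0.45, and over all tested genes 0.01. The values of the groups did not overlap for 13 genes that were lower and 1 that was higher, where 25.6% and 25.0% of all tested genes showed this, or 50.6% in either direction. These counts describe a group of genes that was picked with earlier results in view.

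**Figure D1:**
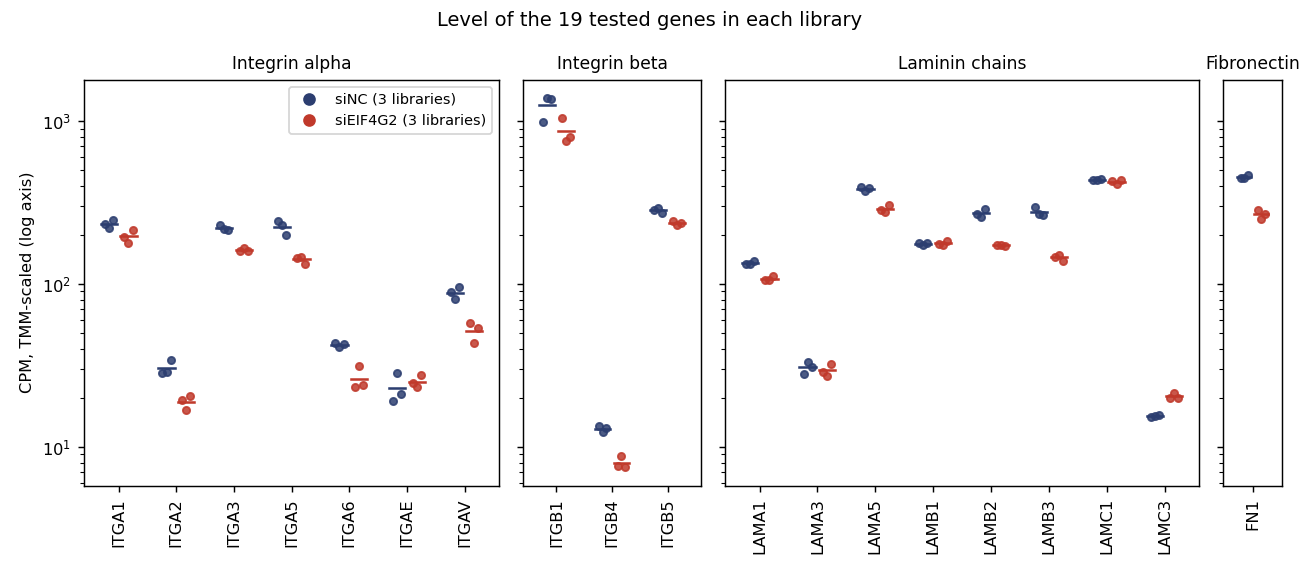
Level of the 19 tested genes in each library, in TMM-scaled CPM on a log axis, with 1 point per library and a line at the mean of the 3 libraries of a group. The siEIF4G2 points of FN1, LAMB2, LAMB3, LAMA5, ITGA3 and ITGB5 all lie below the siNC points, those of LAMC3 lie above, and those of ITGB1, LAMB1, LAMC1, LAMA3 and ITGAE overlap.

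Fibronectin, the ligand of the ITGA5 and ITGAV integrins, was among the clearest differences. FN1 (ENSG00000115414, chromosome 2 from 215360440 to 215436073, minus strand, GRCh38) read 283, 252 and 271 CPM in siEIF4G2 replicates 1, 2 and 3 and 447, 445 and 470 CPM in siNC replicates 1, 2 and 3. The 3 silenced libraries were all lower and the groups were far apart relative to their spread. The means were 269 ± 15.5 and 454 ± 13.6 CPM (SD, n = 3 each), and the log2 fold change was -0.76 (SE 0.055; edgeR adjusted p = 0.000481). The promoter shown above contains a run of GGGCGG boxes, and no TGANTCA.

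Among the alpha subunits that bind the Arg-Gly-Asp motif of fibronectin and vitronectin, both that were tested fell. ITGA5 (chromosome 12 from 54395261 to 54419266, minus strand), the main fibronectin receptor chain, read 146, 146 and 134 CPM in siEIF4G2 and 243, 231 and 199.3 CPM in siNC, in the order of replicates 1, 2 and 3. The highest silenced library was still well below the lowest control, siNC replicate 3, and the log2 fold change was -0.66 (SE 0.084; edgeR adjusted p = 0.00257). ITGAV (chromosome 2 from 186590056 to 186680901, plus strand), which pairs with several beta subunits and binds vitronectin and latent TGF-beta, read 57.5, 43.8 and 53.6 CPM in siEIF4G2 and 88.9, 80.4 and 95.7 CPM in siNC. Its groups did not overlap either, and its log2 fold change of -0.77 (edgeR adjusted p = 0.00479, SE 0.118) was the most negative of the integrins tested. ITGA8 and ITGA2B, of the same class, were not tested: ITGA8 had no count in any library and ITGA2B averaged 0.793 CPM in siEIF4G2 and 0.583 CPM in siNC.

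The laminin-binding alpha subunits ITGA3 and ITGA6 fell as well. ITGA3 read 160, 168 and 159 CPM in siEIF4G2 and 229, 218 and 216 CPM in siNC. All 3 silenced libraries lay below all 3 controls (log2 fold change -0.45, SE 0.045; edgeR adjusted p = 0.00121). ITGA6, which pairs with ITGB4 in hemidesmosomes and with ITGB1 elsewhere, read 23.5, 31.2 and 23.9 CPM in siEIF4G2 and 43.2, 40.9 and 42.6 CPM in siNC. Replicate 2 was the highest of the silenced libraries and remained below every control, and the log2 fold change was -0.69 (SE 0.121; edgeR adjusted p = 0.00772). AC078883 overlaps ITGA6 on the other strand and averaged 0.761 and 0.697 CPM. ITGA7, the third laminin-binding subunit, stayed under the filter at 0.789 ± 0.344 CPM in siEIF4G2 and 2.43 ± 0.049 CPM in siNC, and its groups did not overlap.

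The collagen-binding subunits ITGA1 and ITGA2 lie next to each other on chromosome 5, 30.1 kb apart. ITGA2 read 19.5, 16.9 and 20.4 CPM in siEIF4G2 and 28.3, 28.9 and 34.3 CPM in siNC, and fell (log2 fold change -0.69, SE 0.112; edgeR adjusted p = 0.00587). AC025180, on the other strand of both genes, averaged 0.186 and 0.214 CPM. ITGA1 read 195, 178 and 215 CPM in siEIF4G2 and 234, 220.2 and 247 CPM in siNC. Its groups did not overlap, by the small gap between siEIF4G2 replicate 3 and siNC replicate 2, and its log2 fold change of -0.25 (SE 0.081) narrowly missed the threshold (edgeR adjusted p = 0.0552). It passed without siEIF4G2 replicate 3 (log2 fold change -0.33; edgeR adjusted p = 0.0315) and missed the threshold without each of the other 5 libraries (edgeR adjusted p of 0.0681 to 0.152). PELO overlaps ITGA1 on the same strand and stood at 60.5 ± 0.639 against 63.9 ± 0.832 CPM. ITGA10 and ITGA11 averaged under 0.5 CPM in both groups.

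ITGAE, which in lymphocytes pairs with ITGB7 to bind E-cadherin, was the only other alpha subunit above the filter. It read 24.6, 23.4 and 27.5 CPM in siEIF4G2 and 19.2, 28.4 and 21.0 CPM in siNC, so that siNC replicate 2 lay above all silenced libraries and the other controls below them (log2 fold change 0.14; edgeR adjusted p = 0.541). HASPIN, a mitotic histone kinase gene that overlaps ITGAE on the other strand, read 19.7 ± 0.961 and 16.6 ± 0.313 CPM (edgeR adjusted p = 0.0389). No source used here says whether the counting used strand. The other leukocyte alpha subunits, ITGAL, ITGAM, ITGAX and ITGAD, whose genes lie on chromosome 16, each averaged under 0.1 CPM in both groups, and ITGA4 and ITGA9 averaged under 0.2 CPM.

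Of the beta subunits, ITGB4 and ITGB5 fell, while the most abundant one, ITGB1, differed too much between replicates to pass. ITGB1 (chromosome 10 from 32900318 to 33005792, minus strand), the common partner of most alpha subunits, read 1050, 753 and 796 CPM in siEIF4G2 and 992, 1385 and 1373 CPM in siNC. Replicate 1 departed from the other replicates in both groups, high among the silenced libraries and low among the controls, so that the groups overlapped (866 ± 161 against 1250 ± 224 CPM). The log2 fold change was -0.53 (SE 0.178; edgeR adjusted p = 0.065). Leaving out siEIF4G2 replicate 1 gave -0.69 (edgeR adjusted p = 0.0369). Leaving out siNC replicate 1 instead gave -0.67 (edgeR adjusted p = 0.0333). Leaving out any of the other 4 libraries gave edgeR adjusted p of 0.158 to 0.167, with the difference still below 0. The antisense gene ITGB1-DT averaged 0.819 CPM in siEIF4G2 and 1.09 CPM in siNC.

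ITGB5, which pairs with ITGAV to bind vitronectin, read 243, 230 and 236 CPM in siEIF4G2 and 285, 295 and 272 CPM in siNC. The shift was small but the groups stood apart (log2 fold change -0.26, SE 0.046; edgeR adjusted p = 0.00812). ITGB4, the hemidesmosome subunit, read 7.6, 8.85 and 7.51 CPM in siEIF4G2 and 13.5, 12.3 and 13.1 CPM in siNC (log2 fold change -0.70, SE 0.104; edgeR adjusted p = 0.00438). GALK1, a galactose kinase gene that shares 6225 bases with ITGB4 on the other strand, was also lower (16.2 ± 2.3 against 24.6 ± 2.66 CPM; edgeR adjusted p = 0.0177), so reads of the 2 genes could be mixed. ITGB8, which activates latent TGF-beta together with ITGAV, read 6.67, 1.28 and 7.71 CPM in siEIF4G2 and 10.7, 3.2 and 11.4 CPM in siNC. Replicate 2 was the lowest in both groups, and the gene just missed the filter. ITGB3, the platelet and osteoclast subunit, stood at 0.82 ± 0.27 against 2.26 ± 0.63 CPM, ITGB2, the leukocyte subunit, at 1.02 ± 0.215 against 2.11 ± 0.441 CPM, and ITGB6 and ITGB7 averaged under 0.3 CPM.

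The laminin chains differed within each type, and LAMA3, LAMB1 and LAMC1 did not pass. Among the alpha chains LAMA1 and LAMA5 fell, among the beta chains LAMB2 and LAMB3 fell, and of the gamma chains LAMC3 rose. LAMB3 and LAMA3 encode chains of the epithelial laminin of hemidesmosomes, and of these LAMB3 fell and LAMA3 did not pass. LAMB3 (chromosome 1 from 209614870 to 209652425, minus strand) read 147, 152 and 139 CPM in siEIF4G2 and 296, 271 and 267 CPM in siNC. This was the most negative log2 fold change of the 19 genes, -0.93 (SE 0.06; edgeR adjusted p = 0.000389), a level 1.90-fold lower. LAMA3 read 28.99, 27.2 and 32.3 CPM in siEIF4G2 and 28.2, 33.4 and 31.1 CPM in siNC, with overlapping groups and a log2 fold change of -0.07 (edgeR adjusted p = 0.631, SE 0.096).

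LAMB2, the beta chain of muscle and kidney basement membranes, read 174, 174 and 172 CPM in siEIF4G2 and 269, 260 and 288 CPM in siNC. The silenced libraries lay within a few CPM of each other and far below the controls (log2 fold change -0.65, SE 0.05; edgeR adjusted p = 0.000554). LAMB1, its more widespread counterpart, read 175, 174 and 184 CPM in siEIF4G2 and 179, 174 and 178 CPM in siNC. Its means of 178 ± 5.74 and 177 ± 2.49 CPM differed by less than the spread (log2 fold change 0.01, SE 0.041; edgeR adjusted p = 0.926). LAMB4 had no count in any library.

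LAMA5, the alpha chain of most adult basement membranes, read 283, 278 and 305 CPM in siEIF4G2 and 394, 372 and 386 CPM in siNC (log2 fold change -0.41, SE 0.05; edgeR adjusted p = 0.0023). ADRM1 shares 908 bases with LAMA5 on the other strand and read 140 ± 3.88 and 145 ± 2.43 CPM. LAMA1, the chain of early embryonic basement membranes, read 106, 105 and 113 CPM in siEIF4G2 and 132, 133 and 139 CPM in siNC (log2 fold change -0.32, SE 0.047; edgeR adjusted p = 0.00436). Both alpha chains thus fell, and neither had a silenced library that reached a control. LAMA2 and LAMA4, chains of muscle and vessel laminins, averaged under 1 CPM. The groups of LAMA4 did not overlap, at 0.459 CPM in siEIF4G2 and 0.224 CPM in siNC. It did not pass when fitted without a filter (edgeR adjusted p = 0.157).

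LAMC1, the gamma chain shared by most laminins, read 431, 412 and 436 CPM in siEIF4G2 and 437, 433 and 439 CPM in siNC. The groups overlapped and the log2 fold change was -0.03 (SE 0.038; edgeR adjusted p = 0.526). LAMC3, a gamma chain of restricted expression, read 20.1, 21.5 and 19.9 CPM in siEIF4G2 and 15.3, 15.4 and 15.7 CPM in siNC. All silenced libraries lay above all controls, and the log2 fold change was 0.41 (SE 0.068; edgeR adjusted p = 0.00663).

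**Figure D2:**
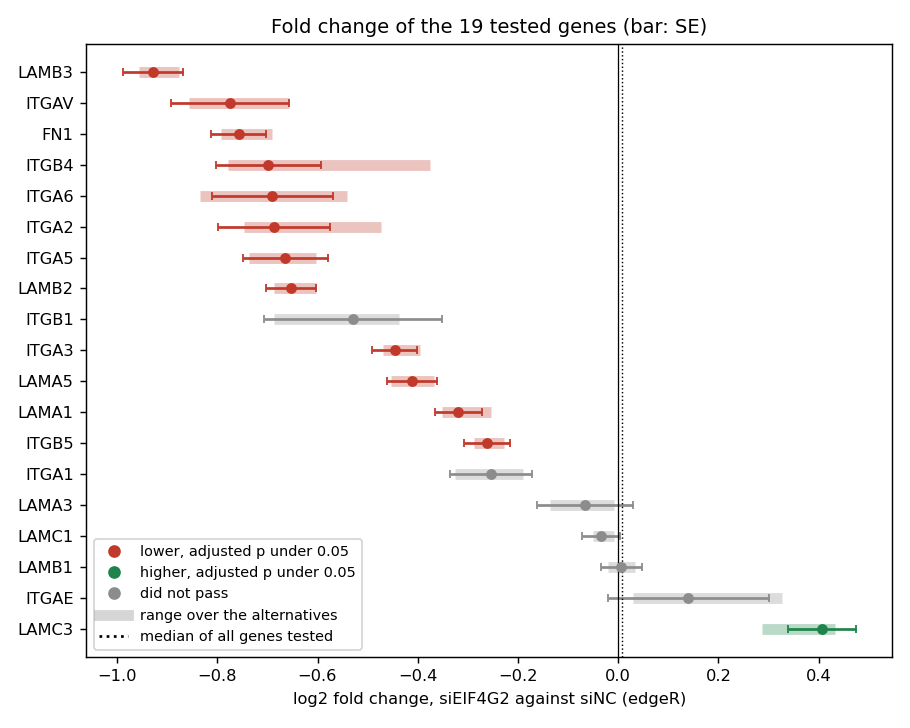
Log2 fold change of the 19 tested genes between siEIF4G2 and siNC from edgeR, with the SE as a thin bar, and a pale band for the range over the 15 alternative analyses, some of which are on the log2(FPKM + 1) scale that draws low genes such as ITGB4 towards 0. LAMB3 is the most negative at -0.93, and LAMC3 is the 1 gene called higher at 0.41. Of the genes that did not pass, ITGA1, ITGB1, LAMA3 and LAMC1 have bands wholly below 0. Those of LAMA3 and LAMC1 reach up to -0.008, and the band of ITGAE lies wholly above 0.

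To set genes against each other, levels were compared as FPKM, which is scaled to transcript length. In siNC the alpha subunits ranked ITGA5 (25.2 ± 2.46 FPKM), ITGA3 (18.7 ± 0.541), ITGA1 (10.5 ± 0.603), ITGAV (8.91 ± 0.777), ITGA6 (5.22 ± 0.138), ITGA2 (3.20 ± 0.358) and ITGAE (2.87 ± 0.618), of which ITGA2 and ITGAE overlapped. In siEIF4G2 ITGA5 (16.2 ± 0.706 FPKM) still led, followed by ITGA3 (14.0 ± 0.185), ITGA1 (8.94 ± 0.947), ITGAV (5.31 ± 0.804), ITGA6 (3.29 ± 0.495), ITGAE (3.22 ± 0.307) and ITGA2 (2.03 ± 0.225). ITGA6 and ITGAE overlapped there. The summed FPKM of the 18 alpha subunits was 53.2 ± 1.18 in siEIF4G2 and 75.0 ± 1.74 in siNC.

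Each subunit was also taken as a share of this sum. ITGA1 made up 16.6%, 15.4% and 18.4% of the alpha sum in siEIF4G2 and 13.6%, 13.2% and 15.0% in siNC, so that its share was higher after silencing in every library although its own level was not. The shares of ITGAE (6.05% ± 0.501 against 3.83% ± 0.861) and ITGA3 (26.3% ± 0.932 against 24.9% ± 0.182) were also higher in every silenced library than in any control. The share of ITGA5 was 30.5% ± 1.49 against 33.6% ± 2.65, and that of ITGAV 9.96% ± 1.3 against 11.9% ± 1.16, with overlap in both cases. For the beta subunits ITGB1 held 78.8% ± 2.46 of the sum in siEIF4G2 and 81.4% ± 3.13 in siNC, and ITGB5 20.2% ± 2.38 and 17.4% ± 2.84, again with overlap. The summed FPKM of the beta subunits, 154 ± 25.1 against 211 ± 31.2, exceeded that of the alpha subunits in each group.

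The laminin beta chains changed most in make-up. Their sum was 66.4 ± 0.566 FPKM in siEIF4G2 and 101 ± 2.84 FPKM in siNC. LAMB3 made up 40.3%, 41.0% and 38.5% of it in siEIF4G2 and 51.0%, 49.5% and 47.2% in siNC, while LAMB1 made up 27.6%, 27.1% and 29.4% against 17.7%, 18.4% and 18.2%. The groups were apart for both chains, in opposite directions, and the share of LAMB2 overlapped (32.1% ± 0.137 against 32.7% ± 1.73). Among alpha chains LAMA5 held 69.4% ± 0.022 and 71.6% ± 1.13, LAMA1 23.4% ± 0.276 and 22.6% ± 0.573, and LAMA3 6.88% ± 0.277 and 5.6% ± 0.563. The gamma sum was 45.0 ± 1.87 against 44.7 ± 0.403 FPKM, of which LAMC3 held 5.13% ± 0.363 against 3.82% ± 0.04. In siNC the beta sum was above the gamma sum by more than the spread, and the alpha sum (31.1 ± 0.563 FPKM) was below it, and the same order was seen in siEIF4G2 (24.6 ± 1.47 FPKM for the alpha chains). A share of messenger RNA does not give the share of assembled protein.

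**Figure D3:**
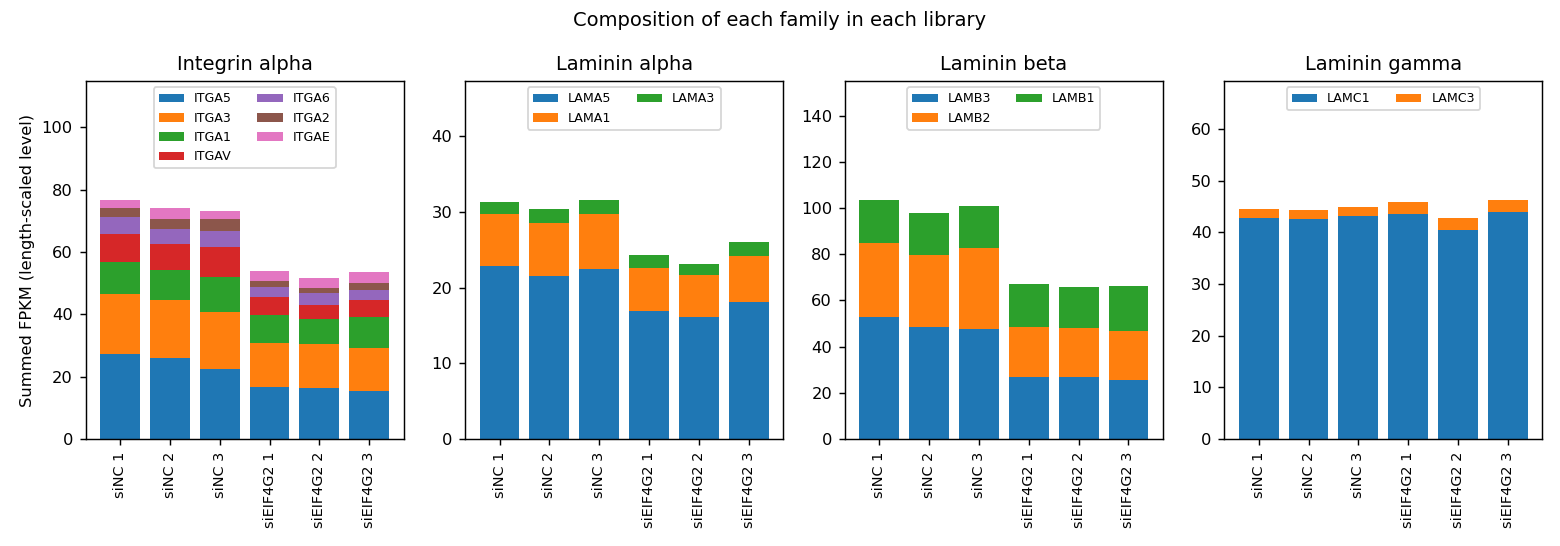
Summed FPKM of the integrin alpha subunits and of the laminin alpha, beta and gamma chains in each of the 6 libraries, stacked by gene (genes with at least 0.5 FPKM in siNC). The laminin beta stack falls from 101 to 66.4 FPKM on average while the LAMB1 block keeps its height, and the gamma stack, mostly LAMC1, is 44.7 and 45.0 FPKM.

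Of the 20 genes that were not tested, 3 (ITGA8, ITGAX and LAMB4) had no count in any library and 15 averaged under 1 CPM in both groups. Without a filter on low values, 17 of the 20 had a fit. Over all genes that fit called 2138 lower and 1771 higher, of a total not given here. Among the 17, 3 passed, ITGA7, ITGB3 and ITGB2, all lower in siEIF4G2. Their log2 fold changes were -1.61 (SE 0.353), -1.45 (SE 0.334) and -1.04 (SE 0.252), with edgeR adjusted p of 0.028, 0.033 and 0.0385. Their groups did not overlap, and they rested on 663, 636 and 643 counts in all over the 6 libraries. The filter lay between ITGB8, at 0.292 ± 0.195 FPKM in siEIF4G2 and 0.459 ± 0.247 FPKM in siNC, and ITGB4, at 0.991 ± 0.078 and 1.58 ± 0.073 FPKM.

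The genes that act with integrins and laminins were examined in 7 lists, of which 101 genes were tested. Of these 35 (34.7%) were lower and 11 (10.9%) higher, against 17.6% and 15.9% of all tested genes, and the median log2 fold change was -0.15. Talin and kindlin bind the beta tail, and the first list holds them together with adaptors of focal adhesions. Of 25 tested, 12 (48.0%) fell, against 17.6% of all tested genes, and 1, ENAH, rose (4.0%, against 15.9%), with a median of -0.21. TNS4, a tensin of epithelial cells, stood at 84.1 ± 1.78 CPM in siEIF4G2 and 170 ± 5.21 CPM in siNC (log2 fold change -1.02, SE 0.044; edgeR adjusted p = 0.000207). VCL, vinculin, which reinforces the talin link, stood at 278 ± 7.32 against 394 ± 16.2 CPM and ACTN4, alpha-actinin, at 566 ± 8.31 against 762 ± 32.3 CPM. The tensins TNS1 and TNS2 stood at 71.9 ± 5.27 against 104 ± 3.78 CPM and 17.1 ± 1.17 against 31.5 ± 2.85 CPM. The tensin TNS3 did not pass, at 8.86 FPKM in siEIF4G2 and 9.04 FPKM in siNC (edgeR adjusted p = 0.566). TNS2 shares its locus with SPRYD3 on the other strand, which did not pass (60.2 ± 5.11 against 53.9 ± 4.72 CPM).

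Of 23 tested kinases and adaptors that signal downstream of adhesion, 7 (30.4%) fell, against 17.6% of all tested genes, and 4 (17.4%) rose, near the 15.9% of all tested genes, with a median log2 fold change of -0.05. RAC1, the GTPase of lamellipodia, rose from 181 ± 1.68 to 282 ± 14.4 CPM (log2 fold change 0.64, SE 0.048; edgeR adjusted p = 0.000542), DOCK1, an exchange factor for RAC1, rose from 58.3 ± 3.46 to 76.9 ± 2.79 CPM, and GIT1, a focal adhesion scaffold, from 82.8 ± 3.39 to 102 ± 2.04 CPM. NEDD9, a docking protein of focal adhesions, fell from 42.5 ± 2.76 to 27.1 ± 1.29 CPM, and ELMO2, a partner of DOCK1, from 36.1 ± 0.919 to 29.4 ± 1.14 CPM. The genes that inactivate or recycle integrins had 3 falls among 10 tested, SNX17, DAB2 and SHARPIN, and 0 rises, where 17.6% and 15.9% of all tested genes were lower and higher. SNX17, which returns integrins to the surface, stood at 96.2 ± 4.81 against 114 ± 2.92 CPM, DAB2, an adaptor for their uptake, at 237 ± 44.5 against 349 ± 15.1 CPM, and SHARPIN, an integrin inactivator whose locus overlaps MAF1, at 26.6 ± 2.73 against 32.7 ± 0.499 CPM. MAF1 was itself higher (154 ± 6.29 against 122 ± 2.12 CPM).

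Tetraspanins are membrane proteins that associate with laminin-binding integrins. Of 8 tested genes of the hemidesmosome and tetraspanin list 4 fell, against 17.6% of all tested genes, and 0 rose, against 15.9%. Those that fell were CD9 (159 ± 4.54 against 201 ± 5.95 CPM), CD63 (493 ± 19.9 against 655 ± 35.4 CPM), TSPAN4 (54.6 ± 2.87 against 78.9 ± 6.0 CPM) and CD82 (40.4 ± 8.43 against 72.7 ± 2.99 CPM). CD151, the tetraspanin bound most closely to ITGA3, and the plakin genes PLEC and DST did not pass (edgeR adjusted p = 0.617, 0.538 and 0.0944). Laminin receptors that are not integrins had 0 falls and 2 rises among 7 tested, where 17.6% and 15.9% of all tested genes were called. The 2 were RPSA (1331 ± 70.3 against 902 ± 15.8 CPM), which is also a ribosomal protein with many pseudogenes, and the syndecan SDC4 (50.4 ± 2.91 against 39.6 ± 0.404 CPM). DAG1, dystroglycan, had a log2 fold change of -0.27 (edgeR adjusted p = 0.8).

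Partners of laminin in the basement membrane had 2 falls (22.2%) among 9 tested, near the 17.6% of all tested genes, and 0 rises, against 15.9%. The 2 were COL18A1 (29.1 ± 1.42 against 43.6 ± 1.2 CPM), whose locus overlaps SLC19A1, and HSPG2, the heparan sulphate proteoglycan perlecan (139 ± 13.0 against 188 ± 6.34 CPM). The nidogens NID1 and NID2, which join laminin to collagen IV, were under 0.05 FPKM in both groups and were not tested. Other ligands of integrins had 7 falls (36.8%) and 4 rises (21.1%) among 19 tested, against 17.6% and 15.9% of all tested genes. VTN, vitronectin, stood at 1.41 ± 0.253 against 5.04 ± 0.952 CPM, FBLN1, fibulin, which binds fibronectin, at 661 ± 20.3 against 983 ± 53.8 CPM, TGFBI at 81.6 ± 4.94 against 135 ± 10.95 CPM, and ADAM9 at 156 ± 11.8 against 281 ± 14.9 CPM. VTN overlaps SARM1, which was also lower (4.0 ± 1.8 against 12.2 ± 2.31 CPM), and AC002094, which had no count in siEIF4G2 and averaged 1.86 CPM in siNC. ADAM15, which carries an Arg-Gly-Asp motif, rose from 135 ± 10.9 to 262 ± 21.5 CPM (log2 fold change 0.96, SE 0.085; edgeR adjusted p = 0.000844).

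**Figure D4:**
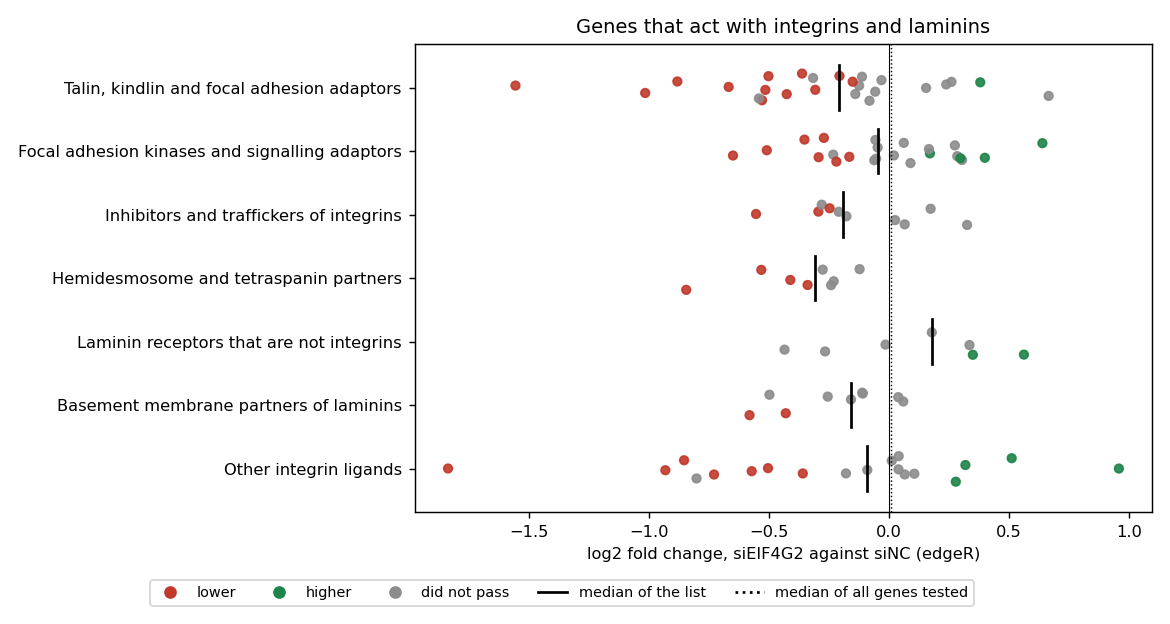
Log2 fold change of the tested genes of 7 lists of integrin and laminin partners, with 1 point per gene, coloured by the edgeR call, and a black line at the median of each list. The tetraspanin list has its points below 0, while the non-integrin laminin receptors have a median of 0.18 and the other ligands spread from -1.84 for VTN to 0.96 for ADAM15.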

How the data were processed

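The authors deposited 1 gene table that holds counts and FPKM for the 6 libraries. HISAT2 2.0 and StringTie 1.3.0 are listed, with no role, in the submitters' processing notes. Genome build, annotation and strand setting: not given in the sources used here. All 39 genes overlapped their GENCODE release 29 interval, so coordinates are given as GRCh38, but only 8 have the same start and end there. The deposited counts look like estimated counts rounded to whole numbers, since only 20% of 10 low values rescaled to reads came within 0.1 of whole. No source used here states this. The FPKM values are the authors' own, per the file headers, and stand at about 0.0001 where the count is 0. Sums and shares took those values as 0 and the others as deposited. Of rows that share a symbol the one with the highest mean FPKM was kept. The 13748 genes tested reached 0.5 FPKM in 3 or more libraries. The fit was edgeR 4.0.16 (R 4.3.3) with TMM factors, the group alone in the model, two-sided, Benjamini-Hochberg adjusted over all tested genes, and was tested on simulated data. SE is the absolute log2 fold change over the square root of F. CPM uses library totals times the TMM factors. Alternatives used DESeq2 1.42.0, limma 3.58.1, other scalings, filters, pseudocounts of 1 and 0.1, a replicate block and leaving out each library. Promoters are RefSeq, GRCh38.p14. Of 34 windows, 30 matched a GENCODE transcript in the direction given. Every gene found by the rule was to be accounted for, with values in every library if tested, and up to 5 called genes of smallest p were named per list. The members and lists were chosen with earlier results of these data known. KRT8, KRT18, PLEC, DST, CD151, DAG1, CLDN1, NID1, NID2, ENAH and TNS3 were picked after values were seen. The values of 1 gene of these families and 1 marker gene are not reported here.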

Additional observations from a re-analysis of the deposited data

How the results depend on the processing

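All 13 genes called among the integrins, laminins and fibronectin were called in the same direction in every one of the 15 alternatives in which they were tested, which for ITGB4 were 14. The number called lower was 12 to 15, with 15 when no filter on low values was used and 14 with DESeq2, and 1 was called higher each time. Over all genes 1785 to 2774 were lower and 1567 to 2569 higher. On leaving out 1 library in turn, 12 to 13 of these genes were called lower, and EIF4G2 had log2 fold changes of -2.50 to -2.36. LAMB1 ranged from -0.021 to 0.022 on leaving out 1 library and was below 0 without the third siEIF4G2 library (-0.021) and without the second siNC library (-0.005); it was called in no alternative. ITGB1 passed with DESeq2 (log2 fold change -0.53, adjusted p = 0.013) and ITGA1 passed with DESeq2 (-0.25, adjusted p = 0.0325) and among genes with at least 1 FPKM in all libraries (adjusted p = 0.0495). The cause was not tested. Over all genes compared, deviations from the group means correlated at -0.087, 0.006 and 0.014 between libraries of the same replicate number. No pairing by number was thus seen over these genes, but this cannot show whether libraries of the same number were prepared together. With the replicate block 13 of these genes were called lower and 1 higher, ITGA1 being added (adjusted p = 0.023), against 2010 lower and 1726 higher over all genes. The difference in the LAMB1 share of laminin beta chains was 9.9 percentage points of FPKM and 11.4 of counts. In the lists of partner genes 27 to 38 were called lower and 8 to 14 higher over the alternatives.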
